A study of Mus musculus with 2 samples.

Results

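The 10 genes described here are proximal microRNA (miRNA) genes of the imprinted Dlk1-Dio3 region on mouse chromosome 12. They lie before, opposite and just after Rtl1: Mir337, Mir540, Mir665, Mir431, Mir433, Mir127, Mir434, Mir136, Mir341 and Mir370. They were chosen by name and position from the 2202 miRNA genes counted, with earlier results of these data known, and all 10 were found. They are not all the miRNA genes there, since 11 other rows between Meg3 and the end of Rian were left out, most of them low. The libraries came from gastrocnemius, a calf muscle made mainly of fast fibres. The mice were B6CASTF1/J males aged 25 days, an F1 hybrid of a C57BL/6J and a CAST strain parent. There is 1 group of 2 libraries, with no treatment and no mutant. The labels call them biological replicates 2 and 1 from separately numbered males but give both 1 donor identifier, so the spread between them may be technical.

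The Dlk1-Dio3 region carries protein-coding genes read from the paternal chromosome, among them Dlk1, Rtl1 and Dio3, and non-coding RNAs read from the maternal chromosome, among them Meg3, Rian and many miRNAs. Rtl1, which derives from a retrotransposon, encodes a protein needed in placenta and active in developing muscle. Its antisense transcript holds hairpins whose miRNAs pair along their whole length with the Rtl1 message and can direct its cleavage. In sheep, the callipyge mutation raises DLK1 and PEG11 (the sheep name of RTL1) in muscle and enlarges the muscles. The files do not separate the parental alleles, so imprinting itself was not measured.

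Whether a hairpin lies opposite Rtl1 can be read from the mature sequences. RefSeq (GRCm38.p6, the assembly also called mm10) held both mature arms of all 10 genes, 20 sequences in all. For the 5 genes inside the coding exon of Rtl1 on its opposite strand, these are the arms, 5′ to 3′, with the seed (bases 2 to 8, which lead target pairing) in capitals.
miR-431-5p: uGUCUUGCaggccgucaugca
miR-431-3p: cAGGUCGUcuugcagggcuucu
miR-433-5p: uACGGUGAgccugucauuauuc
miR-433-3p: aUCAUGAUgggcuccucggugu
miR-127-5p: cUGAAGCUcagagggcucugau
miR-127-3p: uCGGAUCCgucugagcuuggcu
miR-434-5p: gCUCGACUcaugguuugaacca
miR-434-3p: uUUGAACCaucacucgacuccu
miR-136-5p: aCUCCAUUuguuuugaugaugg
miR-136-3p: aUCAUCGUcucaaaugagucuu

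All 10 of these arms had an exact full-length complement in the Rtl1 transcript (6358 bases, 5232 of them coding), and none of the 10 arms of the other 5 genes did. This split follows from the positions of the hairpins, inside or outside the coding exon of Rtl1, and is not separate evidence. The sites lay between coding bases 17 and 4945 of Rtl1. Those of miR-136 were nearest the start codon, followed by miR-434, miR-127, miR-433 and miR-431. The Rtl1 stretches (message strand, 5′ to 3′) opposite 1 arm each of Mir127, Mir434 and Mir136, the genes whose counts differed between the libraries, are shown with the bases that face the seed in capitals.
Rtl1 opposite miR-127-3p: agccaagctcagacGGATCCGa
Rtl1 opposite miR-434-3p: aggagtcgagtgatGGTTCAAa
Rtl1 opposite miR-136-5p: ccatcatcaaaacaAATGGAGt

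The miR-127-3p site covered coding bases 2495 to 2516, the miR-434-3p site 818 to 839 and the miR-136-5p site 52 to 73. Among the 141767 GENCODE M21 transcripts, the only other exact complement of these arms was Mir3071, a hairpin that overlaps Mir136 on the opposite strand. None of the 20 arms occurred on the same strand in a transcript of any other annotated gene. Sequence outside these transcripts was not searched, and that includes spliced-out introns, such as those of Rian around Mir341 and Mir370.

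Of the 5 members outside Rtl1, the arms of 2 are shown, the highest in level at each position: Mir337 ahead of Rtl1 and Mir341 in an intron of Rian.
miR-337-5p: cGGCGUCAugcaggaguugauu
miR-337-3p: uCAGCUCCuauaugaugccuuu
miR-341-5p: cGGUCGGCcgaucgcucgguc
miR-341-3p: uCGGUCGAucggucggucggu

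The arms of miR-341 are runs of a short repeat rich in CG, with 76.2% and 66.7% G and C. All 20 arms had different seeds, so the 10 genes form no seed family. Of these seeds, 18 were found in no other of the 1738 mouse mature sequences. The exceptions were miR-540-3p, which shares its seed with miR-6915-5p, and miR-370-5p, which shares it with miR-1193-3p. A CG pair stood in 8 of the 20 seeds (40%), against 223 of the 1738 mature sequences (12.8%). The hairpins had a median of 56.1% G and C, against 50.8% over all 2202 miRNA genes. Mir136 had the lowest value among the 10, at 40.3%, and Mir540 the highest, at 61.2%. These are descriptions with no test.

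Depth and tissue were checked first. Replicate 2 had 2028332 gene counts and replicate 1 had 1491341, with 71.8% and 69.8% of all reads aligned to several loci and so in no gene row. Levels below are CPM, counts per 1000000 gene counts. A read covers 1 mature miRNA, so no length scaling was used. The counts add both arms of a hairpin, so arms were not compared. Of 9 skeletal muscle miRNA genes, all had counts, and together they summed to 48416 CPM in replicate 2, against 55093 CPM in replicate 1. Mir206 carried most of that sum, with 46543 CPM in replicate 2, against 53367 CPM in replicate 1, while the other 8 genes summed to 1873 CPM in replicate 2, against 1726 CPM in replicate 1. Of the 9, 6 share a hairpin stretch of 20 bases with another gene, and reads that align to several loci are missing from their counts. Endothelial Mir126a had 87525 and 78275 CPM, the smooth muscle pair Mir143 and Mir145a 78690 and 58854 CPM, and the red cell pair Mir451a and Mir144 355 and 174 CPM, in replicates 2 and 1. Leukocyte genes had 2294 CPM in replicate 2, against 2665 CPM in replicate 1, and hepatic Mir122 had 11.3 and 13.4 CPM. Mir126a, 1 of the red cell pair and 1 of the 4 leukocyte genes also share such a stretch with another gene, so their counts have the same limit. Of 6 neuronal genes, 5 had no count and the list had only 0.493 CPM in replicate 2, against 0.671 CPM in replicate 1, and all 6 share such a stretch with another gene. In whole tissue, fewer cells of a type and less RNA per cell cannot be told apart.

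The 10 genes held 87651 counts in replicate 2 and 70483 in replicate 1. That was 4.32% (exact 95% interval 4.29 to 4.35) and 4.73% (4.69 to 4.76) of gene counts, or 4.52 ± 0.286% (SD, n = 2). All intervals cover counting error only. Mir127 made up most of it, with 77.7% of the members' counts in replicate 2 (77.4 to 78.0) and 81.2% in replicate 1 (81.0 to 81.5). With Mir127 left out of members and total, the other 9 genes held 0.959% of gene counts on average. By position, the 5 genes opposite Rtl1 held 93.0% of the members' counts in replicate 2 and 93.5% in replicate 1. The 3 genes before Rtl1 held 6.05% and 5.71%, and the 2 in Rian 0.899% and 0.773%. Without Mir127, the genes opposite Rtl1 still held 68.8% and 65.4% of the remaining counts, in replicates 2 and 1. These shares depend on the choice of members. Rows before Rtl1 that are not members also had counts, Mir493 with 1561 in replicate 2 and 1500 in replicate 1.

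Coordinates below are on chromosome 12 of mm10, and all 10 hairpins are on the plus strand. Mir127 (109592846 to 109592915) lies opposite the coding exon of Rtl1. Its miRNA was reported in mouse satellite cells to promote muscle differentiation through the sphingosine receptor gene S1pr3. It had 68108 counts in replicate 2 and 57264 in replicate 1, or 33578 and 38398 CPM, a mean of 35988 ± 3408 CPM (SD, n = 2). It ranked 10 of 2202 genes in both libraries. That rank is among reads placed in gene rows, and leaves out the 71.8% and 69.8% of all reads that aligned to several loci. Its counts were 12.6 times those of Mir434, the next gene by mean, in replicate 2 and 18.6 times in replicate 1.

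Mir434 (109594506 to 109594599) is the next hairpin along, and its miRNA was reported in mouse muscle to target the translation factor gene Eif5a. It had 5426 counts in replicate 2 and 3076 in replicate 1, or 2675 and 2063 CPM (mean 2369 ± 433 CPM). Mir431 (109590447 to 109590537), whose miRNA was reported in mouse satellite cells to target the stem cell factor gene Pax7, had 4826 and 3477 counts, or 2379 and 2331 CPM in replicates 2 and 1 (mean 2355 ± 33.8 CPM). The Mir431 values lay inside the range of Mir434, so these 2 genes did not differ in level beyond the spread. Mir433 (109591715 to 109591838) gave 2613 counts in replicate 2 and 1914 in replicate 1, or 1288 and 1283 CPM (mean 1286 ± 3.42 CPM). It had the smallest SD of the 10 genes.

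Mir136 (109595327 to 109595388), the hairpin nearest the start codon of Rtl1, was the lowest of the 5 genes opposite Rtl1 and had the largest SD relative to its mean of all 10. It had 586 counts in replicate 2 and 181 in replicate 1, or 289 and 121 CPM (mean 205 ± 118 CPM). Counts of Mir127 were thus 116 times those of Mir136 in replicate 2 and 316 times in replicate 1, although both hairpins lie within 4.94 kb of the same antisense strand. Mir432, the remaining annotated hairpin there and named after its value was seen, had no count in either library, where a count of 0 leaves room for 1.48 CPM in replicate 2 and for 2.01 CPM in replicate 1.

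Before Rtl1, and inside no GENCODE gene other than miRNA genes, the 3 hairpins were steeply graded in level. Mir337 (109585789 to 109585885) gave 4481 counts in replicate 2 and 3346 in replicate 1, or 2209 and 2244 CPM (mean 2226 ± 24.3 CPM), close to Mir431. Mir540 (109586080 to 109586146) had 735 and 603 counts, or 362 and 404 CPM in replicates 2 and 1 (mean 383 ± 29.7 CPM). Mir665 (109586314 to 109586407) gave 88 counts in replicate 2 and 77 in replicate 1, or 43.4 and 51.6 CPM (mean 47.5 ± 5.83 CPM), the lowest of the 10 genes.

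Inside Rian, a maternally expressed non-coding RNA, both hairpins lie in introns on the same strand. Mir341 (109611500 to 109611595) gave 685 counts in replicate 2 and 449 in replicate 1, or 338 and 301 CPM (mean 319 ± 25.9 CPM). Mir370 (109618258 to 109618336), whose miRNA was reported in human liver cells to target the fatty acid oxidation gene CPT1A, had 103 counts in replicate 2 and 96 in replicate 1, or 50.8 and 64.4 CPM (mean 57.6 ± 9.61 CPM).

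**Figure D1:**
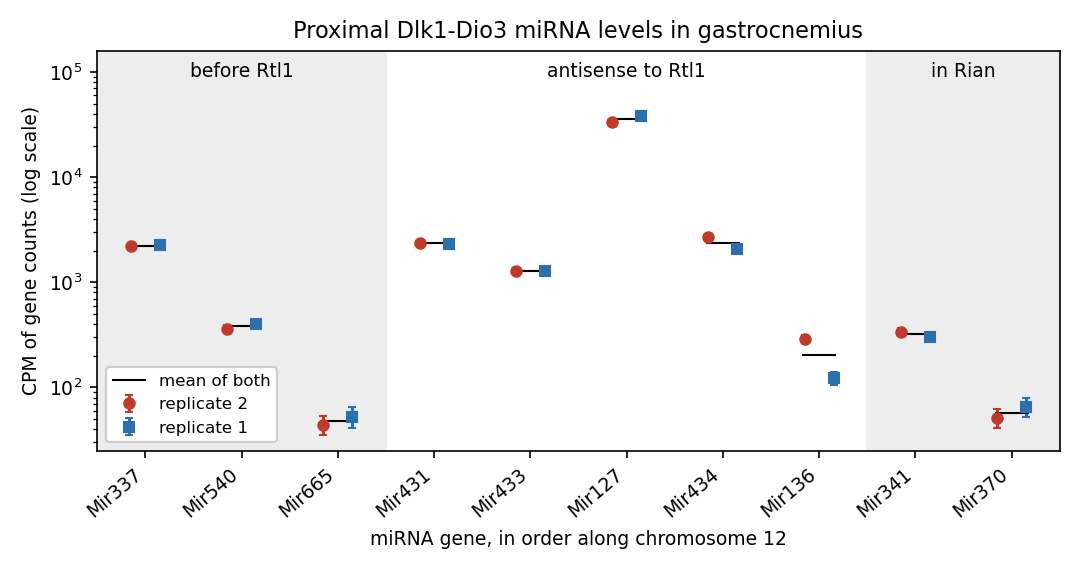
Level of each of the 10 genes in CPM (log axis) in order along chromosome 12, for replicate 2 (circles) and replicate 1 (squares), with exact 95% intervals of the counts and the mean as a line. Mir127 stands at 33578 and 38398 CPM above all others, and Mir136 shows the widest gap between the libraries (289 and 121 CPM).

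The order of the levels was Mir127, Mir434, Mir431, Mir337, Mir433, Mir540, Mir341, Mir136, Mir370 and Mir665. Neighbours in this order overlapped between the libraries in 2 cases, Mir434 with Mir431 and Mir370 with Mir665. Mir431 and Mir337 did not overlap, but their means differed by a factor of only 1.06. Mir341 and Mir136 came close, since the lowest value of Mir341 was 301 CPM and the highest of Mir136 289 CPM. Within a library, log2 of Mir127 over each other gene ranged from a mean of 3.93 ± 0.16 for Mir431 to 9.57 ± 0.04 for Mir665. The least stable of these 9 ratios was that over Mir136, at 6.86 in replicate 2 and 8.31 in replicate 1. The most stable was that over Mir540, at 6.53 and 6.57.

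**Figure D2:**
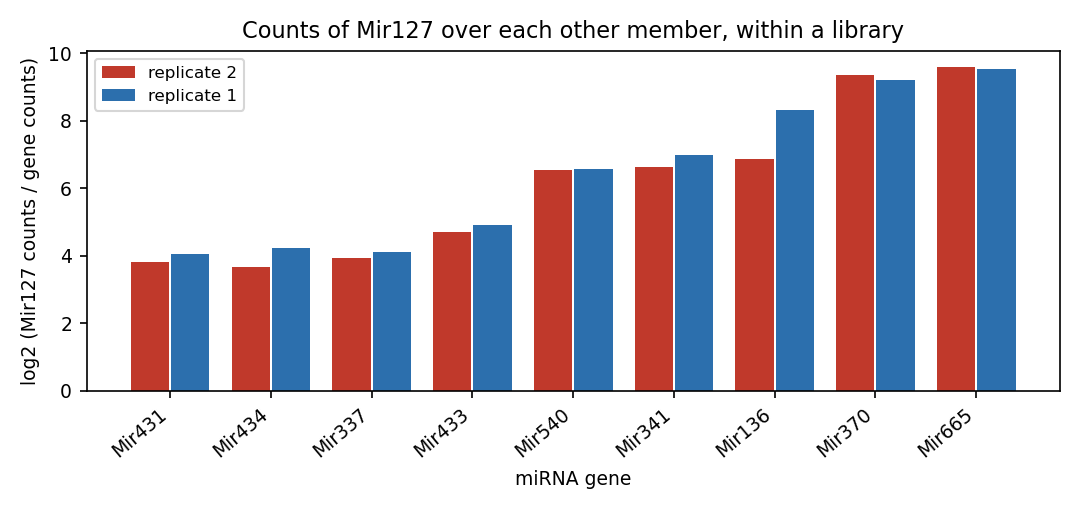
Log2 of Mir127 counts over the counts of each other member, in replicate 2 (left bars) and replicate 1 (right bars), genes in order of the mean. The widest gap within a pair is that of Mir136, with 6.86 in replicate 2 and 8.31 in replicate 1.

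Differences between the libraries were tested gene by gene with an exact binomial test on the counts, with Benjamini-Hochberg adjustment over all 313 genes with at least 10 counts and a threshold of 0.05. This test knows counting error only and compares these 2 libraries, not conditions. All 10 members entered it. Higher in replicate 2 were 2 of 10 members, against 19.8% of all tested genes, and lower was 1 of 10, against 18.5%. In either direction this was 3 of 10, against 38.3% of all tested genes. These shares are near those of all genes, but they are not matched for depth. The test passes smaller differences at higher counts, and the median level was 835 CPM over the members and 106 CPM over all tested genes. The median log2 ratio of replicate 2 over replicate 1 was 0.00195 over the members and 0.05 over all genes tested.

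All 3 genes that passed lie opposite Rtl1. Mir136 had the largest ratio, 1.26 on the log2 scale and higher in replicate 2 (exact 95% interval 1.02 to 1.51, adjusted p = 6.21e-27, exact binomial test). Mir434 was higher with 0.39 (0.32 to 0.45, adjusted p = 7.14e-32, exact binomial test). Mir127 was lower with -0.18 (-0.20 to -0.17, adjusted p = 3.92e-109, exact binomial test). Neighbouring hairpins of 1 antisense strand thus differed in both directions in these libraries. Passing was not particular to that position. Mir493 and Mir770, which lie before Rtl1 and are not members, also passed. In the distal block after Rian, 11 of 33 tested genes were higher and 7 lower in replicate 2.

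The other 7 members did not pass, which does not show that they were alike. Mir431 had a log2 ratio of 0.04 (-0.02 to 0.10) and Mir433 of 0.02 (-0.07 to 0.10), opposite Rtl1. Before Rtl1, it was -0.01 for Mir337 (-0.08 to 0.05), -0.15 for Mir540 (-0.31 to 0.01) and -0.24 for Mir665 (-0.70 to 0.22). In Rian, it was 0.18 for Mir341 (0.0023 to 0.35, adjusted p = 0.0989, exact binomial test) and -0.33 for Mir370 (-0.75 to 0.08). The wide intervals of Mir665 and Mir370 come from 77 to 103 counts per library.

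With the spread between the libraries added to counting error, 0 of 10 members and 0 of 313 genes passed (background 0%, edgeR exact negative binomial test). An unadjusted p under 0.05 was reached by 1 member, Mir136, and by 15 of the 313 genes. The adjusted p of Mir136 was then 0.107 (edgeR exact negative binomial test). That spread, a coefficient of variation of 18.0%, was taken from the same 2 libraries and so contains the differences under test. The cell type markers given above also differed between the libraries, and their part in these differences was not tested. Mir136 has the lowest hairpin GC content of the 10. With a linear trend with hairpin GC removed, its log2 ratio was 1.20 (adjusted p = 2.04e-24, exact binomial test). Mir434 and Mir127 also passed then, with log2 ratios of 0.36 and -0.14, as did Mir431 and Mir341, which gave 5 members in all. The trend was fitted to the same 2 libraries, and the part of hairpin GC in these differences was not tested.

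**Figure D3:**
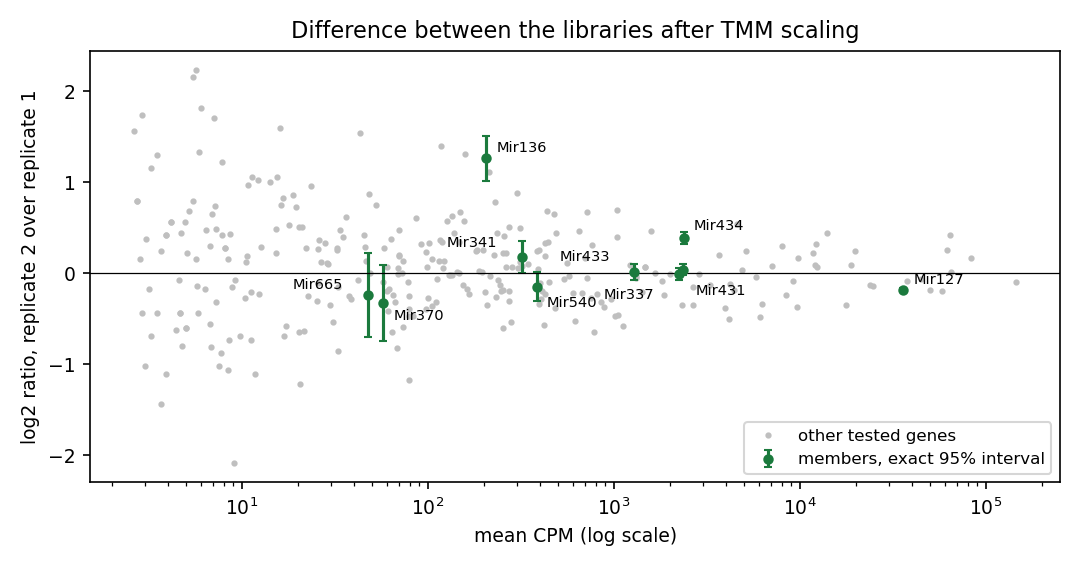
Log2 ratio of replicate 2 over replicate 1 against mean CPM (log axis) for the tested genes (grey) and the 10 members with exact 95% intervals (green). Mir136 lies at 1.26, while the other 9 members lie between -0.33 and 0.39.

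The strand of the reads matters for 2 members. Mir337 overlaps Mir3544, and Mir136 overlaps Mir3071, each on the opposite strand. On the strand of Mir337 there were 4481 counts in replicate 2 and 3346 in replicate 1, and on that of Mir3544 10 and 3. On the strand of Mir136 there were 586 and 181 counts, and on that of Mir3071 2 and 1, in replicates 2 and 1. Nearly all reads therefore lay on the plus strand, that of Meg3 and Rian. In the deposited column without strand both members were listed at 0, because reads in such an overlap were left unassigned. Of the other 8 members, only Mir434 had a read on the opposite strand, 1 in replicate 2.

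The members were then set beside the rest of the imprinted region, as a description, since the 10 leave out the low rows among their neighbours. The region from Meg3 to Dio3 held 67 miRNA rows with 9.82% of gene counts in replicate 2 and 9.99% in replicate 1. The 10 members held 44.0% of the region's counts in replicate 2 (exact 95% interval 43.8 to 44.2) and 47.3% in replicate 1 (47.1 to 47.6). Mir127 alone held 34.2% and 38.4%, and its odds against the rest of the region were 0.832-fold in replicate 2 relative to replicate 1 (Fisher's exact test, two-sided, p = 1.24e-147, counting error only). Median levels were 835 CPM over the 10 members, all of them tested, and 257 CPM over the 33 tested genes of the distal block after Rian (115 CPM over all 46 of its rows). The distal block, led by Mir411 (19662 ± 2266 CPM), Mir379 (9210 ± 446 CPM) and Mir487b (7035 ± 231 CPM), had 11 of 33 tested genes higher and 7 lower in replicate 2. Its tested hairpins had a median of 42.6% G and C, against 56.1% for the members.

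The 11 other rows between Meg3 and the end of Rian held little, 0.114% of gene counts in replicate 2 and 0.137% in replicate 1. Mir493 had 770 CPM in replicate 2 and 1006 CPM in replicate 1, and was lower in replicate 2 (log2 ratio -0.38, adjusted p = 4.34e-12, exact binomial test). Mir770, in Meg3, had 104 and 69.1 CPM and was higher in replicate 2 (log2 ratio 0.60, adjusted p = 0.00167, exact binomial test). Mir673 had 253 CPM in replicate 2 and 293 CPM in replicate 1 and did not pass (log2 ratio -0.20, adjusted p = 0.0828, exact binomial test). Moving from Meg3 towards Rtl1, the mean level was higher at each step over Mir770, Mir673, Mir493 and Mir337, but Mir540 and Mir665, the next along, were lower than Mir493.

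**Figure D4:**
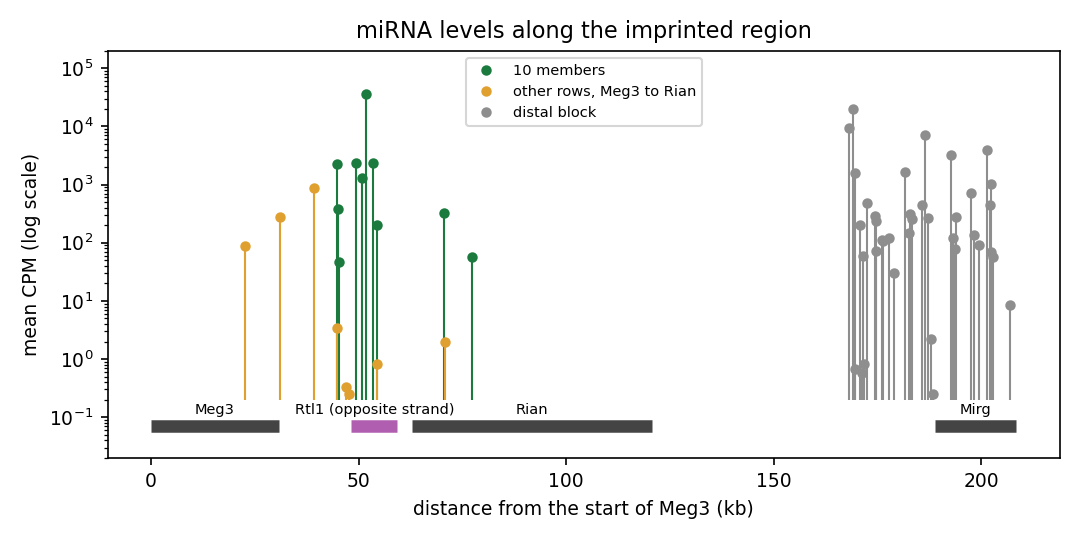
Mean CPM (log axis) of each miRNA row with counts against its distance from the start of Meg3 in kb, with the bodies of Meg3, Rtl1, Rian and Mirg as bars; Mir1247, beside Dio3, lies beyond the axis. The tallest member, Mir127 at 35988 CPM, stands over Rtl1. The first distal row with counts comes after a stretch that holds almost no annotated miRNA genes, so levels there were hardly measured.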

How the data were processed

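MicroRNA sequencing of 2 gastrocnemius libraries was used. The authors deposited unnormalized counts of reads for each miRNA gene, assigned to mm10 with GENCODE M21 per the deposited description. For aligner, trimming and mismatches, the sources used here give nothing. Of the 3 count columns, that for the gene's strand was used. It holds the larger total, 20.6% of the reads of replicate 2 and 19.9% of those of replicate 1. Summary rows stayed out of library sizes. CPM used gene totals. Ratios used TMM effective sizes (edgeR 4.0.16, R 4.3.3) and SciPy 1.17.1 exact binomial tests, which were tested on simulated data. Those simulated data held counting error only, as the test assumes, so they do not show how it behaves with further spread between libraries. With 1 group, no quasi-likelihood contrast could be fitted. Intervals are exact (Clopper-Pearson, 95%), and a count of 0 allows up to 3 counts. The members and lists were chosen with earlier results of these data known. Named besides the members were rows from Meg3 to Rian with at least 10 counts, rows opposite a member and the 3 highest distal genes. Alternatives were other scalings, filters, columns and denominators, a GC trend and a negative binomial test.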

Additional observations from a re-analysis of the deposited data

Results flagged for a closer look

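The opposite-strand column at Mir337, which enters no comparison above, held 10 counts in replicate 2, more than the 3 counts that a count of 0 allows. In replicate 1 it held 3. These reads are the same as those in the row of Mir3544, and 4481 and 3346 counts lay on the strand of Mir337 in replicates 2 and 1.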

How the results depend on the processing

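The 3 members past the threshold stayed 3 with RLE size factors, plain totals, no filter on low counts or Mir127 left out of the totals (the last chosen after seeing the data). The column without strand, which lists Mir136 at 0, left 2. Removal of a linear trend with hairpin GC gave 5, adding Mir431 and Mir341, and the negative binomial test gave 0. The log2 ratio of Mir337, -0.01, turned to 0.0044 without the GC trend and to 0.0023 with Mir127 left out, in neither case past the threshold. The cause was not tested. The members' share of 4.52% was 4.32% to 4.73% when either replicate was left out, 5.73% in the column without strand and 0.915% of all reads. It was 7.53% among genes with no 20-base stretch shared with another miRNA gene, a set that drops Mir337 and Mir136 for their opposite-strand partners. It was 0.959% without Mir127. With Mir127 left out, the genes opposite Rtl1 held 67.1%, those before it 28.8% and those in Rian 4.08% of the members' counts. No paired analysis was possible because there is 1 group. Depth limits Mir665 and Mir370 most.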
